A study of Rattus norvegicus with 6 samples.

Results

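The genes described here encode the proteins of the cytosolic ribosome, in cultured oligodendrocyte precursor cells of the rat with and without fibrils of human alpha-synuclein. They were chosen by symbol from the deposited gene table (Rpl or Rps followed by a number, Rplp0 to Rplp2, and Rpsa), and a row was kept if it was above 0 in at least 1 library. In all, 105 rows with 89 symbols matched, of the 32662 rows in the table. Of these, 92 rows (84 symbols) were above 0 in at least 1 library, among 15949 such rows in the whole table, and 13 rows were listed at 0 in every library. The values are FPKM, a read abundance scaled by transcript length and sequencing total that may be compared between genes.

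The cells were primary cultures from the cerebral cortex of Sprague-Dawley rats. Mixed glia came from pups of 1 to 2 days and grew in medium with 20% serum. Precursor cells, taken from the non-adherent fraction, were cultured a further 4 to 5 days on 2% B27 with 10 ng/ml of the growth factors FGF and PDGF. The 3 fibril libraries came from cells left for 72 hours with preformed fibrils of human alpha-synuclein and the 3 control libraries from cells without them. Both groups shared strain, tissue, culture medium and growth factors. Whether a group's libraries were separate cultures is not in the labels, so the p-values describe the spread between these libraries, which may be technical.

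The cytosolic ribosome joins a small subunit, which reads the mRNA, to a large subunit, which forms the peptide bond. Each subunit holds ribosomal RNA and one copy of most of its proteins, and cells usually keep the mRNAs of these proteins at similar, high levels. Their mRNAs are the best known carriers of a 5' terminal oligopyrimidine tract, a run of C and T from the first transcribed base, through which mTORC1 and the RNA-binding protein Larp1 control their translation. Oligodendrocytes build large amounts of membrane and myelin protein as they mature, which places a high demand on protein synthesis.

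The libraries differed in ways that touch every result below. Replicate 1 of both groups stood apart. Mitochondrially encoded genes held 80.3% of all FPKM in control replicate 1 and 75.6% in fibril replicate 1, and between 12.004% and 40.1% in the other libraries. The fragment number is unknown, but low values come in steps of 1 fragment, and such a step was 4.03 times as large in control replicate 1 as in control replicate 2, and a further 1.71 times as large in fibril replicate 1. Low FPKM are therefore least precise in replicate 1. All 10 precursor markers were above the limit for testing, with summed FPKM of 1720 to 2784 in controls and 1296 to 1572 with fibrils. Positive differences were found in 2 of them, Nkx2-2 and Sox10, and the median log2 difference was -0.75. Markers of differentiating oligodendrocytes summed to 1262 to 5449 FPKM in controls and 5041 to 9952 with fibrils. All 8 tested of 11 had positive differences, 6 of them with groups that did not overlap. Over all genes tested, 4.24% were higher with fibrils without overlap and 5.3% lower. By limma with the replicate block, Mag (adjusted p = 0.0267) and Enpp6 (0.0435), genes of myelinating and newly forming oligodendrocytes, passed as higher. In that fit 0.111% of all genes were called higher. The log2 differences of Mag and Enpp6 were 3.55 and 3.66, and by limma without the block their adjusted p were 0.228 and 0.304. Astrocyte markers summed to 114 to 148 FPKM in controls and 49.2 to 89.2 with fibrils. Of the 8 tested, 1 had a positive difference. This was Gfap, at 0.370 to 0.733 FPKM in controls and 3.69 to 24.8 with fibrils. Gja1, Slc1a3 and Slc4a4 were lower with fibrils without overlap. Microglia and macrophage markers summed to 1.502 to 46.4 and 11.9 to 61.7, and neuron markers to 579 to 927 and 362 to 618. Of the 9 neuron markers tested, 0 had a positive difference, and Dcx, Snap25 and Stmn2 were lower with fibrils without overlap. Endothelial, mural and fibroblast markers summed to at most 0.819 FPKM, with Acta2, Cldn5 and Col1a2 at 0 in all libraries. Of the 7 microglia and macrophage markers tested, 5 had positive differences and 0 passed with or without the block. Tyrobp, which relays signals from receptors of myeloid cells, was at 0, 4.48 and 0 FPKM in controls and 1.93, 18.7 and 8.76 with fibrils, and Cd14, a lipopolysaccharide co-receptor, was the 1 marker of that list whose groups did not overlap, at 0 to 0.260 and 2.39 to 10.6 FPKM. Aif1 and Cd68 also had positive log2 differences, of 0.96 and 1.13, with overlap. C1qa, C1qb and C1qc were highest in control replicate 2, at 10.3, 8.36 and 7.44 FPKM, with log2 differences of -0.05, 0.15 and -0.04. Cx3cr1, a defining microglial gene, was at 0 in 5 of 6 libraries. Among the others not tested, Csf1r, Ptprc and Trem2 reached at most 1.84, 0.427 and 0.801 FPKM. Some of these marker levels moved with the groups. All 8 differentiating markers tested had positive differences and 0 of the 9 neuron markers did. The precursor, astrocyte and microglia lists were mixed. Their part in the ribosomal protein values was not tested. In bulk RNA, more cells of one type and more RNA per cell cannot be told apart.

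A complete set of cytosolic ribosomal proteins was held against 77 standard symbols. For 66 of them, 26 of the small and 40 of the large subunit, the highest row had a mean above 30 FPKM, and these are called the standard rows below. For 6 symbols the highest row had a mean under 2 FPKM. Rps6, the small subunit protein phosphorylated by S6 kinase, and Rplp2, an acidic protein of the ribosomal stalk, were listed at 0 in all 6 libraries. Rps19, the gene most often mutated in Diamond-Blackfan anaemia, had a mean of 0.932 FPKM, Rpl7a 0.246, Rpl8 0.441 and Rpl35a 1.496. For the remaining 5 symbols (Rps9, Rps13, Rps26, Rpl37 and Rpl38) no row carried the symbol, and they were not analysed here. These are core proteins of the ribosome, and Hprt1, which every cell uses, was also listed at 0 in all libraries. A listed 0 can therefore be a failed estimate. Of the 6 low symbols, Rps19 alone passed the limit for testing, and its differences rest on values under 2 FPKM; no fold is given for the other 5. The other rows at 0 throughout were 3 rows named Rpl21, 2 named Rpl30l1 and 2 named Rpl35al1. Rpl31l3, Rpl35a, Rpl39 (chromosome 18) and Rps29 had 1 such row each. The Rpl35a row at 0, on chromosome 5, spans 13965 bases, and the other Rpl35a row, on chromosome 12, spans 402 bases. Which of them is the standard gene was not tested.

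Just inside the threshold of the rule lay Rpl3l, the striated muscle paralogue of Rpl3, with 0.0917 FPKM in control replicate 3 and 0 elsewhere. Rpl10l, the testis paralogue of Rpl10, had 0.225 FPKM in the same library only. Rps2 on chromosome 5, Rps4y2, Rpl22l2 and Rps19l1 followed, each with a mean of 0.0751 to 0.138 FPKM. Rpl39l, another paralogue of the male germ line, had 1.56 and 0.320 FPKM in control replicates 2 and 3, 2.02 FPKM in fibril replicate 2, and 0 in the other 3 libraries. These low rows give no measurable difference between groups.

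The highest member was Rpl23, a large subunit protein at the subunit interface. It had 9788, 1169 and 666 FPKM in control replicates 1, 2 and 3, and 7793, 1344 and 1754 FPKM in the fibril libraries. Rpl23 alone held 18.5% and 12.9% of all ribosomal protein FPKM in replicate 1 of the control and fibril groups, and 1.88% to 2.65% in the other libraries. Its first rank by mean therefore rests on replicate 1.

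Next came Rpl35, which sits by the exit of the peptide tunnel. Rpl35 had 1656, 2120 and 984 FPKM in controls and 1727, 2340 and 3458 with fibrils. Rps29 (the row on chromosome 6), a zinc-binding protein of the small subunit head, had 1981, 1209 and 466 FPKM and 3022, 1349 and 2856 FPKM. Rps7 had 2509, 1272 and 631 FPKM in controls and 3037, 1364 and 1668 with fibrils. In each of these genes the groups overlapped, with control replicate 3 the lowest library.

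Rpl21 (the row on chromosome 12) had 1173, 1404 and 783 FPKM in controls and 1261, 1442 and 3180 with fibrils. Rpl11, which with Rpl5 and 5S rRNA binds Mdm2 when ribosome assembly fails, had 1627, 1158 and 571 FPKM and 2131, 1263 and 2064 FPKM. The means of the 6 highest genes ran from 1469 FPKM for Rpl11 to 3752 FPKM for Rpl23, and the values of neighbours in this order overlapped across libraries.

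Over the 66 standard rows, the median level was 480, 712 and 337 FPKM in control replicates 1, 2 and 3 and 626, 798 and 1249 FPKM in the fibril libraries. Control replicate 3 was the lowest library and fibril replicate 3 the highest, and control replicate 2 lay above fibril replicate 1. The subunits had like levels, with medians of mean FPKM of 784 for the 26 small subunit genes and 772 for the 40 large subunit genes. The small subunit genes held 35.3%, 39.9% and 36.5% of the ribosomal protein FPKM in controls and 39.0%, 41.3% and 40.3% with fibrils.

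**Figure D1:**
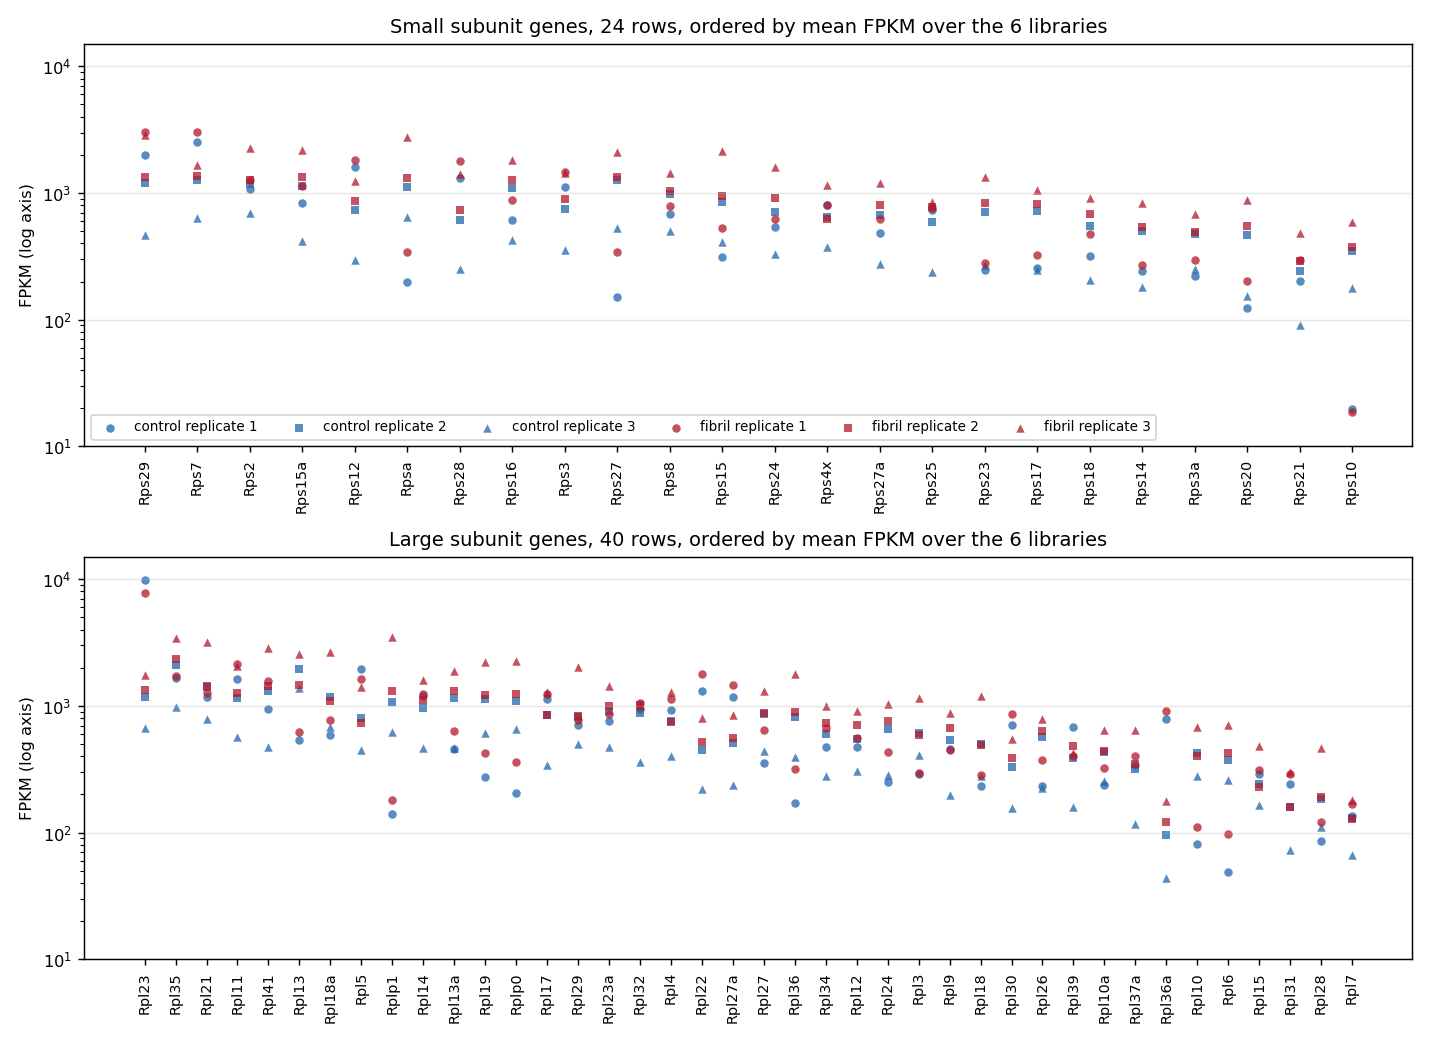
FPKM (log axis) of 64 of the 66 standard rows in each of the 6 libraries, small subunit genes above and large subunit genes below, ordered by mean; blue is control, red is fibril, and the marker shape gives the replicate number. Fibril replicate 3 (red triangles) was the highest library in 52 of the 66 rows and control replicate 3 (blue triangles) the lowest in 44, while the circles of replicate 1 scatter from about the lowest to the highest values.

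The share of the whole transcriptome given to these genes was compared next. The 92 rows held 12.1%, 15.6% and 8.85% of the non-mitochondrial FPKM total in control replicates 1, 2 and 3, and 13.0%, 16.5% and 18.9% with fibrils. The group means were 12.2% ± 3.37 and 16.1% ± 3.0003 (SD, n = 3 each), a difference of 3.96 percentage points, and the groups overlapped because control replicate 2 lay above fibril replicate 1. Without replicate 3 of both groups the difference was 0.913 points. Of the total with mitochondrial genes, the share was 2.38%, 10.2% and 6.98% in controls and 3.16%, 9.91% and 16.6% with fibrils, lowest in replicate 1 of both groups.

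**Figure D2:**
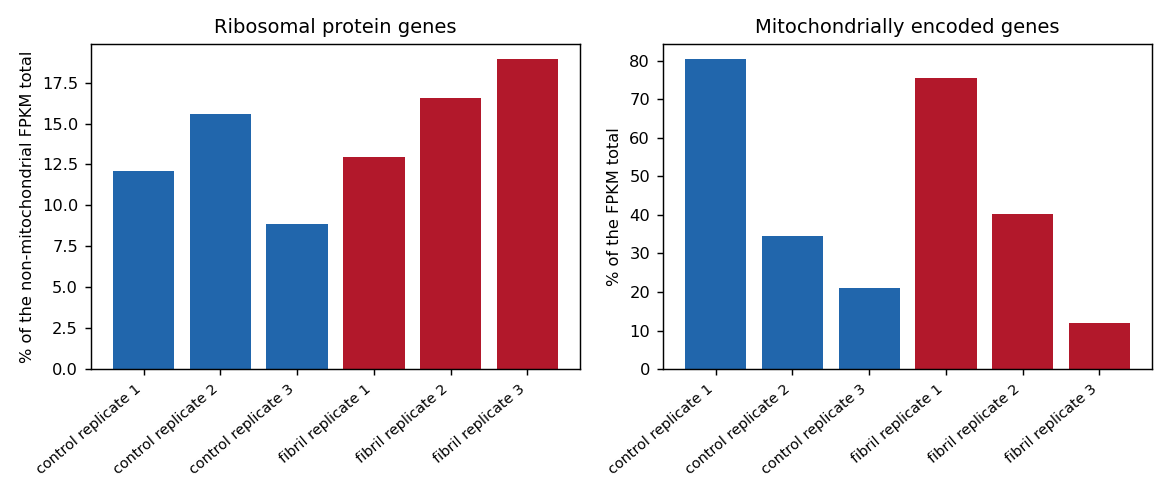
Left, the 92 ribosomal protein rows as a percentage of the non-mitochondrial FPKM total in each library (control blue, fibril red); right, the mitochondrially encoded genes as a percentage of all FPKM. The left bars run from 8.85% in control replicate 3 to 18.9% in fibril replicate 3, and the right bars are highest in replicate 1 of both groups (80.3% and 75.6%).

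The study asked which transcripts differ after exposure to fibrils. Of the 92 rows, 77 passed the limit for testing (at least 1 FPKM in at least 3 libraries), and 75 of these 77 had a positive log2 difference, fibril minus control, on log2(FPKM + 1). The count was 74 after scaling to equal totals without mitochondrial genes and 70 after quantile normalization. Over all 10766 genes tested, 47.0% had a positive difference. That share was 27.7% after scaling without mitochondrial genes and 50.0% after quantile normalization. The median difference was 0.80 over the ribosomal protein genes tested and -0.04 over all genes tested, and single members ranged from -0.19 to 1.69. The median SE of a member was 0.65, so most single differences were close to 1 SE.

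No ribosomal protein gene passed the test. By limma with Benjamini-Hochberg adjustment, 0 were higher and 0 lower at an adjusted p below 0.05, where 0.0% of all genes were called in each direction; the smallest adjusted p among them was 0.96. Unadjusted, 3 rows had p below 0.05, all higher with fibrils, against 2.21% of all genes called higher by that rule. With the replicate number as a block, again 0 passed, while 0.111% of all genes were called higher; the smallest adjusted p of a member was then 0.316. In that fit 7 rows had an unadjusted p below 0.05, all of them higher with fibrils, against 4.87% of all genes called higher by that rule. In both directions together the blocked fit gave an unadjusted p below 0.05 for 1059 of the 10766 genes.

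The size of the difference depended on the replicate number. Within replicate 1 the median difference of the 77 rows was 0.34 with 67 positive, within replicate 2 it was 0.15 with 61 positive, and within replicate 3 it was 1.85 with 76 positive. The medians of all genes tested were 0.00, -0.04 and -0.05. In 54 of the 77 rows the sign was positive in 3 of 3 replicate numbers, as it was in 1815 of all 10766 genes. After quantile normalization the medians of the 77 rows were 0.17, 0.03 and 0.64, and only 44 were positive within replicate 2. After scaling without mitochondrial genes, which moved the median of all genes to -0.30, they were 0.25, 0.11 and 1.06. With replicates 1 and 2 alone the pooled median was 0.24, so most of its size came with the libraries numbered 3. By the median of the standard rows, these were the lowest control and the highest fibril library. Whether numbers 2 and 3 mark pairs is not known, so the split of the difference between these numbers depends on the numbering. Each fibril library lay above each control in 13 rows when replicate 3 was left out, where 8.59% of all genes did.

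**Figure D3:**
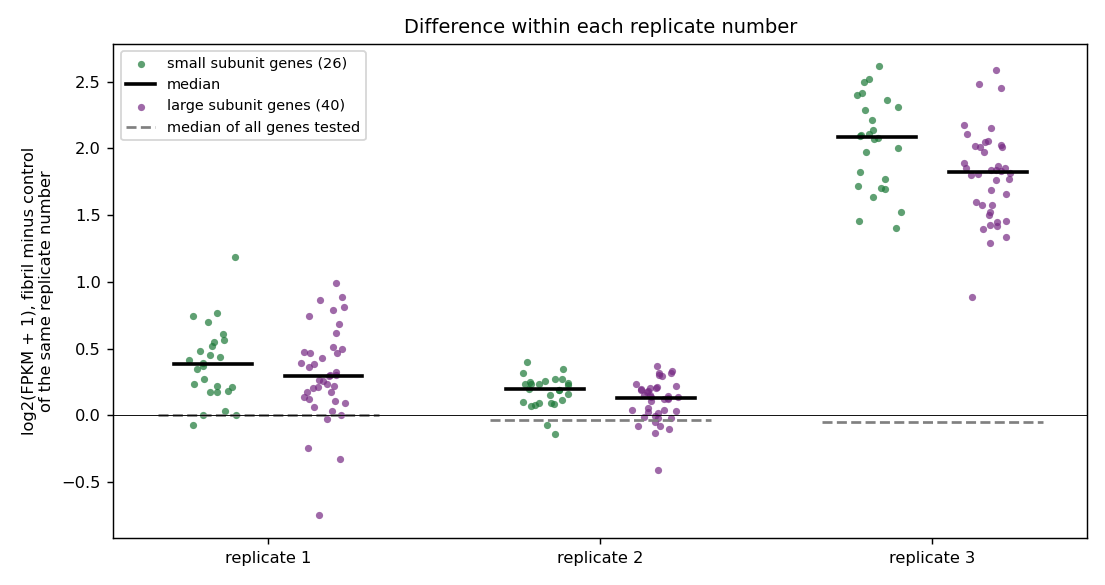
Log2 difference, fibril minus control of the same replicate number on log2(FPKM + 1), for the 26 small (green) and 40 large (purple) subunit standard rows; black bars are medians and dashed lines the median of all genes tested. The small subunit medians are 0.38, 0.19 and 2.08 and the large subunit medians 0.30, 0.13 and 1.82; after quantile normalization the medians stayed positive but those of replicate 2 were 0.03 and 0.01.

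All 66 standard rows had a positive pooled difference, from 0.23 to 1.16 with a median of 0.81. The 26 small subunit genes had a median of 0.90 and the 40 large subunit genes 0.76. After quantile normalization, 25 small and 35 large subunit genes were still positive, with medians of 0.34 and 0.24. Fibril replicate 3 was the highest of the 6 libraries in 52 of the 66 rows, fibril replicate 1 in 11 and control replicate 1 in 3. Control replicate 3 was the lowest in 44, control replicate 1 in 21 and fibril replicate 1 in 1.

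In 13 of the 77 rows every fibril library lay above every control library, which is 16.9% of the rows against 4.24% of all genes tested; in 0 rows was the order the other way, against 5.3%. After scaling without mitochondrial genes the count was 4 of the 77 rows, against 2.5% of all genes. After quantile normalization it was also 4 of the 77 rows, a share close to the 4.74% of all genes. Rpl22l1 and the chromosome 6 row of Rpl32 were in the set on the deposited scale and under both other scalings, and Rps10l1 on the deposited scale and after quantile normalization.

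Rps10l1, a paralogue of Rps10, had one of the largest differences. Rps10l1 had 9.72, 20.3 and 8.66 FPKM in controls and 24.4, 37.6 and 59.5 with fibrils, a 3.14-fold ratio of means. Every fibril library lay above every control, and the group means differed by 1.58 on the log2 scale (SE 0.48, limma adjusted p = 0.96, and 0.316 with the replicate block). The difference was positive in 3 of 3 replicate numbers. Its row lies on chromosome 6 from 75429728 to 75430226 in the deposited coordinates, a span of 499 bases (build not given in the sources used here). Its parent Rps10, a small subunit protein at the mRNA entry side, had 19.7, 350 and 179 FPKM in controls and 18.7, 378 and 587 with fibrils. Rps10l1 stood at 49.4%, 5.81% and 4.83% of its parent in controls and 131%, 9.94% and 10.1% with fibrils, so its share of the parent was also higher with fibrils within each number. The authors' counting could divide fragments between similar copies, so both rows are uncertain. How alike Rps10l1 and Rps10 are in sequence was not examined.

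Rpl22l1 is a paralogue of the RNA-binding large subunit protein Rpl22. Rpl22l1 had 46.9, 38.4 and 10.0 FPKM in controls and 107.5, 55.9 and 71.1 with fibrils, a 2.46-fold ratio of means. The groups did not overlap, and the log2 difference was 1.47 (SE 0.60, limma adjusted p = 0.96, and 0.405 with the block). Its parent Rpl22 had 1301, 450 and 222 FPKM in controls and 1795, 520 and 796 with fibrils, and there the groups overlapped. Rpl22l1 stood at 3.60%, 8.53% and 4.52% of Rpl22 in controls and at 5.99%, 10.8% and 8.93% with fibrils. The share was higher with fibrils within each replicate number, while control replicate 2 lay above fibril replicate 1. Without control replicate 3 the log2 difference of Rpl22l1 was 0.81.

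Rpl32 had 2 rows. The row on chromosome 4, the standard gene of this large subunit protein, had 939, 883 and 361 FPKM in controls and 1061, 1026 and 991 with fibrils. The row on chromosome 6 had 3.16, 4.09 and 3.36 FPKM in controls and 11.2, 6.49 and 11.5 with fibrils, a 2.75-fold ratio of means. Neither row overlapped between groups. The log2 difference of the chromosome 6 row was 1.21 (SE 0.39, limma adjusted p = 0.96, and 0.389 with the block). That row runs from 145740034 to 146099053, a span of 359020 bases, far longer than a usual ribosomal protein gene, and its level was 0.336% to 1.16% of that of the standard row.

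The other rows whose groups did not overlap were standard genes with smaller differences. Rps21, a small subunit protein, had 203, 243 and 90.7 FPKM in controls and 298, 290 and 487 with fibrils. Rpl41, the shortest ribosomal protein, had 941, 1305 and 474 FPKM and 1580, 1447 and 2849 FPKM. In both genes the nearest libraries of the groups were control replicate 2 and fibril replicate 2, and the fibril libraries lay just above. Rpl37a (chromosome 9), Rpl34, Rps15a, Rpl12, Rps25 and Rps2 (chromosome 10) were among the rest, with log2 differences from 0.67 for Rps2 to 1.03 for Rps15a. Within replicate 1, Rps25 had 737 FPKM without and 754 FPKM with fibrils, so some of these gaps were small beside the spread within a group.

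The ribosomal stalk recruits elongation factors and is formed by Rplp0, Rplp1 and Rplp2. Rplp0 had 205, 1094 and 661 FPKM in controls and 361, 1236 and 2250 with fibrils. Rplp1 had 140, 1080 and 626 FPKM in controls and 179, 1322 and 3502 with fibrils. Both stalk genes were higher with fibrils within each replicate number and lowest in replicate 1, and the groups overlapped. Their log2 differences were 0.92 (SE 0.88) and 1.04 (SE 1.15). Rpsa, a small subunit protein also known as a laminin receptor, showed the same order, with 199, 1113 and 647 FPKM in controls and 339, 1311 and 2768 with fibrils.

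Several members carry a second known role. Rps27a, which is made as a fusion with ubiquitin, had 483, 669 and 276 FPKM in controls and 625, 799 and 1194 with fibrils on its chromosome 14 row. Its row on chromosome 5 had 3.14% to 20.1% of that level. Rpl13a, known from translational control under interferon, had 459, 1150 and 464 FPKM in controls and 639, 1315 and 1894 with fibrils. Rpl26, known to bind the p53 mRNA, had 231, 570 and 225 FPKM and 372, 634 and 789 FPKM. In these 3 genes each fibril library was above its same-numbered control, and control replicate 2 was above fibril replicate 1.

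The smallest and largest differences lay at the edges of a continuous spread. Rps20, a small subunit protein ubiquitinated at stalled ribosomes, had 125, 466 and 153 FPKM in controls and 203, 548 and 880 with fibrils, a log2 difference of 1.15. Rpl31l4 had the largest difference, 1.69, but with an SE of 1.46. Its levels were 0, 64.3 and 26.9 FPKM in controls and 8.78, 58.0 and 106 with fibrils, and without control replicate 1 the difference was -0.11.

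At the other end, Rpl13 had 539, 1945 and 1384 FPKM in controls and 624, 1467 and 2564 with fibrils. Its difference was 0.23, and it turned to -0.32 after quantile normalization and -0.08 after scaling without mitochondrial genes. Rpl39 (chromosome X), a short protein of the peptide tunnel, had 679, 387 and 158 FPKM in controls and 403, 483 and 425 with fibrils, a difference of 0.33 that turned to -0.08 after quantile normalization. Rpl13 and Rpl39 were thus the standard rows with the least difference, and neither kept its sign under every scaling.

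Rpl7l1, a paralogue of Rpl7 linked to ribosome assembly, was 1 of 2 tested rows with a negative difference. It had 19.9, 59.9 and 46.9 FPKM in controls and 25.6, 47.0 and 31.3 with fibrils, a difference of -0.19. The other was Rpl37a on chromosome 10, a row of at most 5.69 FPKM, at -0.09. Rpl7 had 135, 130 and 66.7 FPKM in controls and 170, 129 and 181 with fibrils. Rpl7l1 stood at 14.7%, 46.2% and 70.4% of Rpl7 in controls and 15.1%, 36.5% and 17.3% with fibrils, so the ratio was lower with fibrils in replicates 2 and 3 and nearly equal in replicate 1. Rps27l, a paralogue of Rps27 known as a p53 target, had 1045, 283 and 96.2 FPKM in controls and 896, 292 and 397 with fibrils. In replicates 2 and 3 Rps27l stood at 18.0% to 22.5% of Rps27 in both groups, but in replicate 1 it exceeded its parent, at 695% for the control and 261% for the fibril library.

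Relative to the median of the 77 rows, 16 rows had a larger difference within 3 of 3 replicate numbers, 12 of the small and 4 of the large subunit. The 77 rows include 26 small and 40 large subunit standard rows, and a difference between subunits was not tested. Rps10l1, Rpl22l1, Rps18, Rplp1 and Rps28 were among them. A further 16 rows had a smaller difference in 3 of 3, 7 of the small and 9 of the large subunit, with Rpl13, Rpl5, Rpl15, Rps4x (chromosome X) and Rpl3 among the lowest within replicate 2. Rpl3, which shapes the peptidyl transferase centre, had 292, 612 and 410 FPKM in controls and 294, 591 and 1161 with fibrils. Rps4x had 802, 652 and 374 FPKM and 801, 620 and 1164 FPKM. In both genes the groups were close in replicates 1 and 2 and apart in replicate 3.

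Replicate 1 had its own ribosomal protein profile in both groups. The difference of replicate 1 from the mean of replicates 2 and 3, on log2(FPKM + 1), ranged over the 66 standard rows from -3.60 to 3.59 in controls and from -4.58 to 2.63 with fibrils. Its SD over rows was 1.37 and 1.23, against 1.13 and 1.04 over all genes tested. The sign was the same in both groups in 46 of 66 rows. Rps10 was the lowest of these, at -3.60 in controls and -4.58 with fibrils. Rpl6, a large subunit protein, had 48.6, 375 and 258 FPKM in controls and 97.8, 426 and 705 with fibrils. Rplp1, Rps27, Rpsa, Rpl10 and Rplp0 were also low in replicate 1, by -2.05 to -2.55 in controls and -2.21 to -3.58 with fibrils.

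Other genes were high in replicate 1. Rpl36a, a large subunit protein near the site where tRNA leaves, had 794, 95.9 and 43.7 FPKM in controls and 915, 121 and 179 with fibrils, a difference of replicate 1 of 3.59 and 2.63. Rpl23 followed at 3.47 and 2.34, and Rpl22 at 2.04 and 1.48. Across the 66 rows, Spearman's rho between the 2 replicate 1 libraries was 0.96, between replicate 1 and any other library 0.36 to 0.55, and among the 4 libraries of replicates 2 and 3 it was 0.89 to 0.98. These are descriptions over genes, which are not independent replicates, and the libraries compared share gene lengths and processing. The ratio of the highest to the lowest standard row was 497 and 417 in replicate 1 of the control and fibril groups and 19.4 to 31.6 in the others. The proportions of ribosomal protein mRNAs were thus close to one another in replicates 2 and 3 with and without fibrils, and replicate 1 differed from them in both groups. The high mitochondrial share and the larger fragment steps of replicate 1 moved with this profile, and their part in it was not tested.

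**Figure D4:**
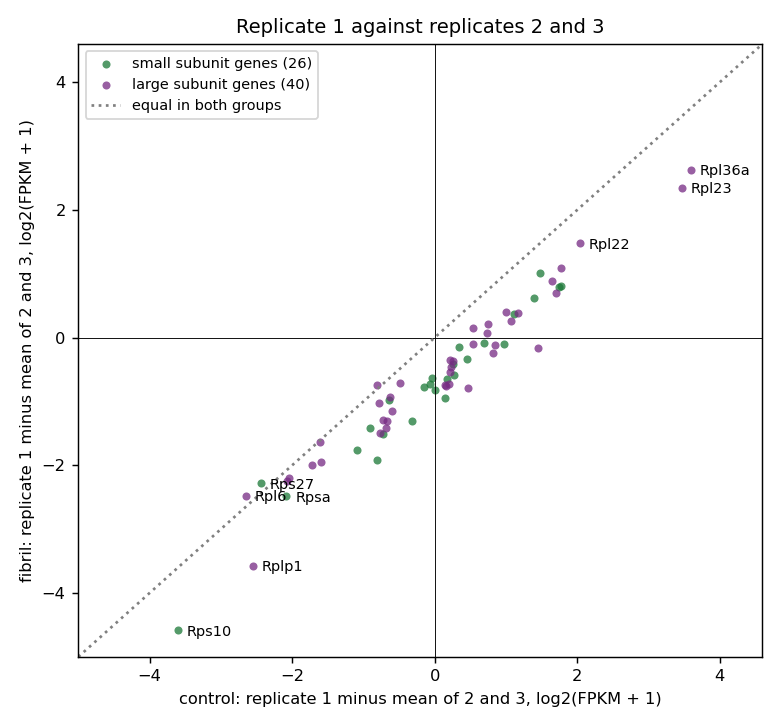
Difference of replicate 1 from the mean of replicates 2 and 3 on log2(FPKM + 1), in controls (x axis) and with fibrils (y axis), for the 26 small (green) and 40 large (purple) subunit standard rows; the dotted line marks equal values. Rps10 lies at -3.60 and -4.58 and Rpl36a at 3.59 and 2.63, and most points lie below the dotted line.

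The start of transcription was examined because most ribosomal protein mRNAs begin with a pyrimidine tract. Of the 84 symbols above 0, 63 matched the RefSeq promoter table of the GRCr8 build, with 64 promoters of 300 bases, 250 before the annotated start and 50 from it. At the annotated first base, 22 of the 64 (34.4%) had a C followed by at least 4 bases that were C or T, against 2.52% of 21851 protein-coding promoters. Within 10 bases of that start, 45 (70.3%) had such a tract, against 28.5% of all. The starts of 2 paralogues, Rpl22l1 and Rps27l, are shown to compare them with those of their parents Rpl22 and Rps27, and Rplp0, Rplp1 and Rps23 are shown as further examples of the tract, as 60 bases on the gene's strand, 40 before the annotated start and 20 from it. Capitals mark the pyrimidine tract at or near the start, and a sequence without capitals held no such tract within 10 bases.
Rplp0: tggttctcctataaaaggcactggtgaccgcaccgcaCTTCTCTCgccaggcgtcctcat
Rplp1: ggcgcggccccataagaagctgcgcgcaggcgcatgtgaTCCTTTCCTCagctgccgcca
Rpl22: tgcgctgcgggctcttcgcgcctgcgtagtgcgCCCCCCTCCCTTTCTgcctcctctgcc
Rpl22l1: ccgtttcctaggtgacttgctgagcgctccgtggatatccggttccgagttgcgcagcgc
Rps27: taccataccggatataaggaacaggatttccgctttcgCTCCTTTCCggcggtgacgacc
Rps27l: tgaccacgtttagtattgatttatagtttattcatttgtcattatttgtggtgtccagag
Rps23: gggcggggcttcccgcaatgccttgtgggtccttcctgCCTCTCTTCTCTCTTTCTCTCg

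These windows are Rplp0 at chr12:46718371-46718430 (minus strand), Rplp1 at chr8:71290853-71290912 (minus), Rpl22 at chr5:168117921-168117980 (plus), Rpl22l1 at chr2:113683156-113683215 (plus), Rps27 at chr2:177964587-177964646 (minus), Rps27l at chr8:76443618-76443677 (plus) and Rps23 at chr2:23814477-23814536 (plus), all in GRCr8. Rps23 is shown for its long tract of 21 bases. The tracts of Rplp0, Rplp1, Rpl22 and Rps27 measure 8, 10, 15 and 9 bases. Rpl22l1 and Rps27l, by contrast with their parents, have no tract in these letters near the annotated start, which says nothing about where transcription starts in these cells.

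Members with and without the tract in the letters near the annotated start had like differences between groups. The split follows the annotated start and not the start used in these cells. The median log2 difference was 0.83 over 21 tested genes with a tract at the first base, 0.72 over 21 with one within 10 bases only, and 0.88 over 15 without. Within replicate 3 these medians were 1.85, 2.01 and 2.03. Other motifs were counted on both strands of the 300 bases, without regard to overlaps with the tract or with one another. CCGGAAG, a core bound by ETS factors, was in 17 promoters (26.6%, against 10.7% of all), ATGGCGG, a core bound by Yy1, in 14 (21.9%, against 6.0%), and TATAA in 16 (25.0%, against 23.6%). A match is a description of letters and not evidence of a bound factor.

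Lists of related genes, written from textbook knowledge, were described in the same way, and in none of these lists, the marker lists apart, did a gene pass the test by limma with or without the block. Of the ribosome's constituents outside the symbol rule, Rack1, a scaffold on the small subunit, had 227, 479 and 295 FPKM in controls and 324, 432 and 685 with fibrils. Fau, which carries a ubiquitin-like fusion of a small subunit protein, had 44.5, 434 and 215 FPKM and 55.5, 456 and 991 FPKM. The log2 differences of Rack1 and Fau were 0.53 and 0.86. Fau was higher with fibrils within each number, and the low value of Fau in replicate 1 resembles that of Rps10.

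Other transcripts known for a pyrimidine start had smaller differences. Of 20 tested, 17 were positive with a median of 0.48, but after quantile normalization 9 were positive with a median of -0.06. Eef1a1, which delivers aminoacyl-tRNA, had 1185, 2593 and 2024 FPKM in controls and 1606, 2455 and 2735 with fibrils. Eef2, which moves the ribosome along the mRNA, had 217, 635 and 704 FPKM and 269, 688 and 873 FPKM. Tpt1, another transcript with such a start, had 5149, 2131 and 1182 FPKM and 5770, 2196 and 2507 FPKM. Tpt1 was high in replicate 1 as Rpl23 was, while Eef1a1 and Eef2 were low there as Rplp0 was.

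Elongation and termination genes had 7 of 10 positive with a median of 0.40, and initiation genes 26 of 34 with a median of 0.28. After quantile normalization these counts were 4 and 18. Among elongation genes, Eef1b2, an exchange factor for Eef1a1, had 74.3, 136 and 79.0 FPKM in controls and 115, 150 and 282 with fibrils. Ribosome biogenesis genes had 35 of 41 positive with a median of 0.20. After scaling without mitochondrial genes 16 of the 41 were positive, where 27.7% of all genes were. Fbl, the rRNA methyltransferase fibrillarin, had 60.5, 60.3 and 58.9 FPKM in controls and 69.5, 61.6 and 180 with fibrils. In Fbl every fibril library lay above every control, with log2 differences of 0.20, 0.030 and 1.59 within replicates 1, 2 and 3. RNA polymerase I and its factors had 8 of 15 positive with a median of 0.05.

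Mitochondrial ribosomal protein genes, which serve a separate ribosome, had 65 of 70 positive with a median of 0.41. After quantile normalization 64 were positive and after scaling without mitochondrial genes 48. Their medians within replicates 1, 2 and 3 were 0.13, -0.04 and 1.25, so the gap between libraries numbered 3 was found here too. Mrps12, of the mitochondrial small subunit, had 8.94, 21.6 and 18.9 FPKM in controls and 24.9, 29.4 and 88.2 with fibrils, without overlap and with a log2 difference of 1.33.

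The genes of mTORC1 and of the control of ribosomal protein mRNA had 15 of 24 positive with a median of 0.20. After scaling without mitochondrial genes 7 were positive, a share near the 27.7% of all genes. Mtor, the kinase itself, had 4.39, 6.11 and 12.6 FPKM in controls and 6.19, 7.58 and 6.16 with fibrils. Larp1, which binds the pyrimidine tract, had 8.83, 13.98 and 25.5 FPKM and 8.68, 15.98 and 12.2 FPKM. Myc, a transcription factor of ribosome genes, had 52.2, 40.2 and 52.7 FPKM and 38.8, 37.8 and 47.6 FPKM. The groups overlapped in all 3. Eif4ebp2, a repressor of cap-dependent initiation, had 66.5, 78.7 and 96.9 FPKM in controls and 39.4, 70.5 and 14.3 with fibrils, and Lamtor2, a lysosomal anchor of mTORC1, 102, 78.6 and 50.8 and 233, 84.8 and 180 FPKM. Eif4ebp2 was lower and Lamtor2 higher with fibrils within each replicate number, with log2 differences of -1.19 (SE 0.57) and 1.03 (SE 0.52).

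Genes of ribosome quality control and its stress kinases had 7 of 18 positive with a median of -0.09, which was 0.04 after quantile normalization, and the p53 arm of the ribosomal protein checkpoint 7 of 9 with a median of 0.12. Cdkn1a, the main p53 target of cell cycle arrest, had 30.1, 44.5 and 40.9 FPKM in controls and 52.7, 37.1 and 58.6 with fibrils, with overlap. Zak, a kinase that senses collided ribosomes, had 7.43, 9.13 and 9.51 FPKM in controls, 7.70 and 5.83 in fibril replicates 1 and 2, and was listed at 0 in fibril replicate 3.

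**Figure D5:**
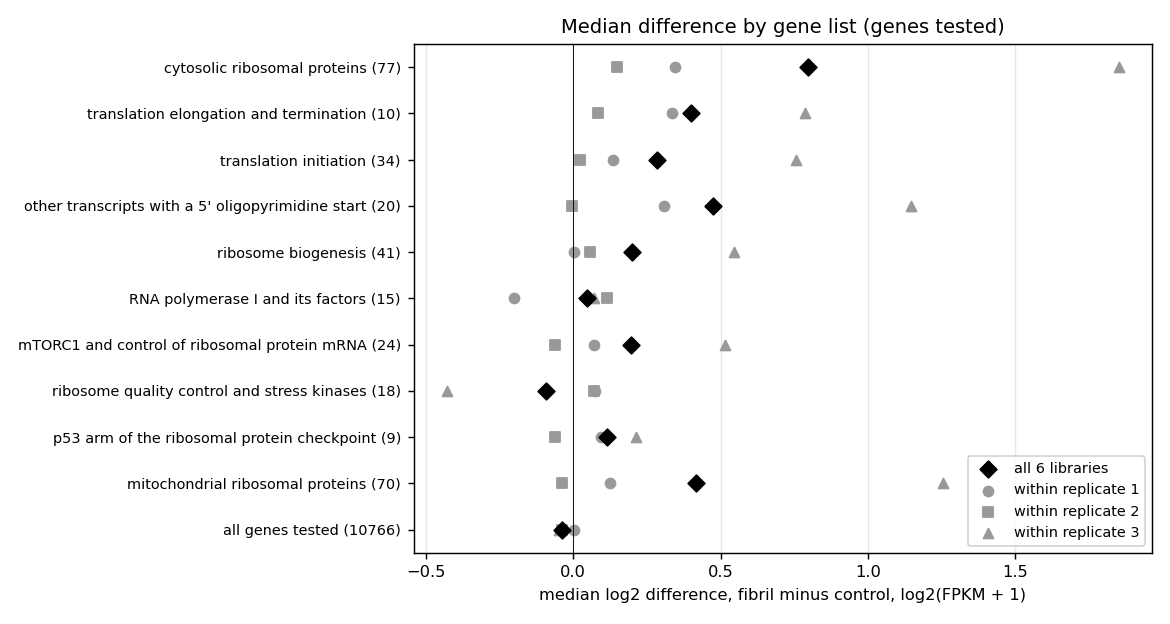
Median log2 difference, fibril minus control on log2(FPKM + 1), for each gene list with the number of genes tested in brackets; diamonds use all 6 libraries and grey symbols the pair of libraries with one replicate number. The cytosolic ribosomal protein genes lie at 0.80 (0.31 after quantile normalization) and all genes tested at -0.04. In most lists the triangle of replicate 3 lies far to the right. After quantile normalization the medians of elongation and of other transcripts with a pyrimidine start turned negative, and that of ribosome quality control positive. After scaling without mitochondrial genes those of initiation, biogenesis, RNA polymerase I, mTORC1 and p53 turned negative. They stayed above the median of all genes under that scaling, -0.30.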

How the data were processed

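Total RNA was extracted with RNeasy, libraries were made with a strand-specific Agilent SureSelect kit and sequenced on an Illumina MiSeq, per the labels. The submitters' processing notes name Trimmomatic and FastQC; an aligner, quantifier, annotation or build was not given in the sources used here. As deposited, values are FPKM per gene, 1 column for each of 6 libraries (3 control, 3 fibril), and 0 columns could not be mapped to a library. In 81 rows the symbol was absent or a date, and these could not be matched by name. Depth is unknown, so no counting interval is given.

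Because the table holds FPKM and not counts, log2(FPKM + 1) was tested with limma 3.58.1 (R 4.3.3; mean-variance trend, two-sided, Benjamini-Hochberg over 10766 genes that reached 1 FPKM in at least 3 libraries, threshold 0.05). An exact test of 3 against 3 cannot go below p = 0.1. Gene lists were described by counts and medians only. The members and lists were chosen with earlier results of these data known. Named members were the 6 highest and 6 lowest by mean FPKM, the 6 largest and 6 smallest differences, up to 12 rows without overlap by smallest p, rows at 0 throughout, paralogues with parents, and Rplp0, Rplp1, Rplp2, Rpsa, Rps6, Rps27a and Rpl13a; from related lists, the 3 smallest p and fixed genes. Rps10, Rpl5, Rpl6, Rpl15, Rpl32 (chromosome 4), Rps18, Rps23, Rps28, Rpl7a, Rpl8 and Rpl35a were named after their values were seen, as were the marker genes singled out. Some genes that fall under these rules are not reported here, and 64 of the 66 standard rows are drawn by name.

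The groups share replicate numbers. Deviations from the group means, compared across genes, correlated between libraries of one number at 0.747, 0.364 and 0.216. Control replicate 3 with fibril replicate 2 gave 0.500 and control replicate 2 with fibril replicate 3 gave 0.433. The shared number thus stood out for replicate 1 only. The labels state no pairing, and the numbers were nevertheless treated as pairs. Differences within numbers 2 and 3, signs in 3 of 3 numbers and the blocked fit depend on that choice. The fit left 4 residual degrees of freedom and 2 with the block. Data were simulated for the fibril against control comparison (10766 genes, 50 changed at each size). Log2 changes of 1, 2, 3 and 4 were called in 0, 0, 15 and 34 genes without the block. With it they were called in 0, 13, 29 and 33 genes, and false calls were 0 without and 1 with it. The simulation gave both groups the same deviation for each replicate number. It therefore cannot show what the block gains where numbers do not mark pairs. Promoters were read from the RefSeq table (GRCr8) and searched with Python 3.11.15 and pandas 2.3.3.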

Additional observations from a re-analysis of the deposited data

How the results depend on the processing

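The count of ribosomal protein genes past the threshold was 0 in each direction under the reported setting and all 17 alternatives. Over all genes, 0 were higher without the block, 12 with the replicate block, 1 with the block and scaling without mitochondrial genes, 1 without the mean-variance trend, and 0 to 3 when single libraries were left out (3 without fibril replicate 3); 0 were lower in each. The block changed no call of a ribosomal protein gene. Their median log2 difference of 0.80 was 0.31 after quantile normalization (70 positive), 0.49 after scaling without mitochondrial genes, 0.99 with replicates 2 and 3 only, 0.24 with replicates 1 and 2 only (added after seeing the data) and 0.51 to 0.98 when single libraries were left out, lowest without control replicate 3; less the median of all genes it was 0.83, with 0.31, 0.79, 1.05, 0.25 and 0.52 to 1.01. The difference in share of the non-mitochondrial total, 3.96 points, was 5.51 with replicates 2 and 3 only and 2.30 to 5.67 when single libraries were left out, lowest without control replicate 3. Rows without overlap between groups numbered 13, 61 with replicates 2 and 3 only (18.0% of all genes) and 4 after scaling without mitochondrial genes, both added after seeing the data; the smaller number of libraries makes such an order more frequent.

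Of 41 named members tested, 14 changed sign in at least 1 alternative, in 39 of their values; the other 658 values kept sign and side. With quantile normalization the reversed differences were Rpl13 -0.32, Rpl23 -0.057, Rpl3 -0.10, Rpl37a (chromosome 10) 0.21, Rpl39 (chromosome X) -0.080 and Rps4x (chromosome X) -0.042. With scaling without mitochondrial genes, with and without the block, the reversed difference was Rpl13 -0.079. With replicates 1 and 2 only the reversed differences were Rpl13 -0.10, Rpl23 -0.064, Rpl3 -0.022, Rpl39 (chromosome X) -0.22, Rpl7l1 0.0035, Rps19 -0.23, Rps27l -0.089 and Rps4x (chromosome X) -0.037. With a pseudocount of 5 the reversed difference was Rpl37a (chromosome 10) 0.047. With a pseudocount of 0.1 the reversed difference was Rps19 -0.20. When single libraries were left out the difference ranged from -0.14 to 1.30 for Rpl10, -0.30 to 0.78 for Rpl13, -0.36 to 1.58 for Rpl23, -0.0073 to 0.98 for Rpl3, -0.11 to 2.90 for Rpl31l4, -0.030 to 2.05 for Rpl36a, -0.73 to 0.64 for Rpl37a (chromosome 10), -0.23 to 0.81 for Rpl39 (chromosome X), -0.65 to 0.13 for Rpl7l1, -0.15 to 0.61 for Rps19, -0.092 to 1.62 for Rps27a (chromosome 5), -0.21 to 1.503 for Rps27l and -0.065 to 1.07 for Rps4x (chromosome 4). The cause was not tested. Depth is unknown and limits low rows most in replicate 1.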

Other observations

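Pseudogene rows of ribosomal proteins, whose symbols end in -ps and a number, fell outside the symbol rule. Of 22 such rows, 11 were above 0 in at least 1 library and 3 exceeded 10 FPKM. Rpl34-ps1, on chromosome 17, had 6.76, 156 and 78.6 FPKM in controls and 44.9, 174 and 171 with fibrils, and it was higher with fibrils within each replicate number. Rpl6-ps1 had 2.00, 36.5 and 24.9 FPKM in controls and 5.78, 28.3 and 37.1 with fibrils, and like its parent Rpl6 it was lowest in replicate 1 of both groups. Rpl26-ps2 had 0, 3.79 and 1.95 FPKM in controls and 2.89, 4.92 and 11.1 with fibrils. Such rows can take fragments from the parent genes, and how the authors assigned shared fragments is not given in the sources used here.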
